A study of Mus musculus with 19 samples.

Results

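The antioxidant and glutathione enzymes were taken as 36 genes chosen by symbol, read over the 4 diet groups from a table of 24237 usable genes. They comprise the transcription factor Nfe2l2 (NRF2) and its inhibitor Keap1, haem oxygenase and quinone reductase, the enzymes that make and recycle glutathione, the thioredoxin system, peroxiredoxins, glutathione peroxidases, superoxide dismutases, catalase and glutathione S-transferases. All 36 were found. Of these, 35 were expressed highly enough to be tested, and Nqo1 was not (1.33 to 6.13 FPKM over all mice). FPKM scales the fragments of a gene by transcript length and by the mapped reads of the library, so that levels can be compared between genes. The RNA came from epididymal white adipose tissue (eWAT) of male C57Bl6/J mice, which were 9 to 10 weeks old when the diets began and ate them for 17 weeks. The NormMg-LFD group (n = 4) ate 0.21% (wt/wt) magnesium oxide and 10% of energy as palm oil, and the LowMg-LFD group (n = 5) ate 0.03% magnesium oxide with the same fat. The NormMg-HFD group (n = 5) ate 0.21% magnesium oxide with 60% of energy as palm oil, and the LowMg-HFD group (n = 5) ate 0.03% magnesium oxide with that fat. The study allocated 12 mice to each diet and sequenced whole tissue of a random 5 per group, 1 library per mouse, of which 1 NormMg-LFD sample failed quality control.

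Superoxide dismutases turn superoxide into hydrogen peroxide, which catalase, glutathione peroxidases and peroxiredoxins then reduce. Glutathione supplies the electrons for glutathione peroxidases and thioredoxin those for most peroxiredoxins, and glutathione S-transferases use glutathione to detoxify electrophiles such as the aldehydes that lipid peroxidation releases. NRF2 is held back by KEAP1 under resting conditions and, when released, binds antioxidant response elements in the promoters of many of these genes. Adipocytes handle large amounts of lipid and express several glutathione S-transferases, whereas haem oxygenase 1 is prominent in macrophages that recycle haem.

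The libraries held 12986441 to 13027028 reads, of which 86.12% to 90.41% were mapped. All 10 adipocyte markers were detected, with a summed FPKM of 13552 to 23130 per mouse. Some libraries stood apart. The summed FPKM of 13 exocrine pancreas markers was 1850 in NormMg-LFD mouse 3 and 12.5 to 52.6 in the other mice. The methods of the study name a LowMg-HFD library as left out for pancreatic tissue, whereas among the libraries used here these markers were high in a NormMg-LFD mouse. That of 7 epididymis markers was 141 in LowMg-LFD mouse 4 and 28.8 in LowMg-HFD mouse 4, where 27.5 came from Cst8 alone, and at most 4.44 elsewhere. That of 6 erythrocyte markers was 4495 in LowMg-HFD mouse 3 and between 943 and 2535 elsewhere. For the pancreas and epididymis markers, main counts are also given with NormMg-LFD 3, LowMg-LFD 4 and LowMg-HFD 4 left out together, which leaves 16 mice. LowMg-HFD 3 stays in these 16 mice. So do NormMg-HFD 2, with a lymphocyte marker sum of 34.4 (5.09 to 18.25 elsewhere), and NormMg-LFD 5, with a mesothelium marker sum of 88.05 (at most 48.4 elsewhere). Macrophage markers moved with the diets: the summed FPKM of all 14 was 633 to 765 in NormMg-LFD mice, 491 to 917 in LowMg-LFD mice, 3111 to 4952 in NormMg-HFD mice and 871 to 2769 in LowMg-HFD mice. Within the LowMg-HFD group it was 2769, 2349, 1192, 871 and 1273 in mice 1 to 5. The sum of 6 fibroblast and progenitor markers was 1122 to 1273 in NormMg-LFD, 761 to 1177 in LowMg-LFD, 1551 to 2096 in NormMg-HFD and 1041 to 1286 in LowMg-HFD mice. That of 4 mesothelium markers was 28.3 to 88.05, 14.5 to 48.4, 7.24 to 16.9 and 14.8 to 35.1 in the same order. In whole tissue, fewer cells of a type and less RNA per cell cannot be told apart.

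**Figure D1:**
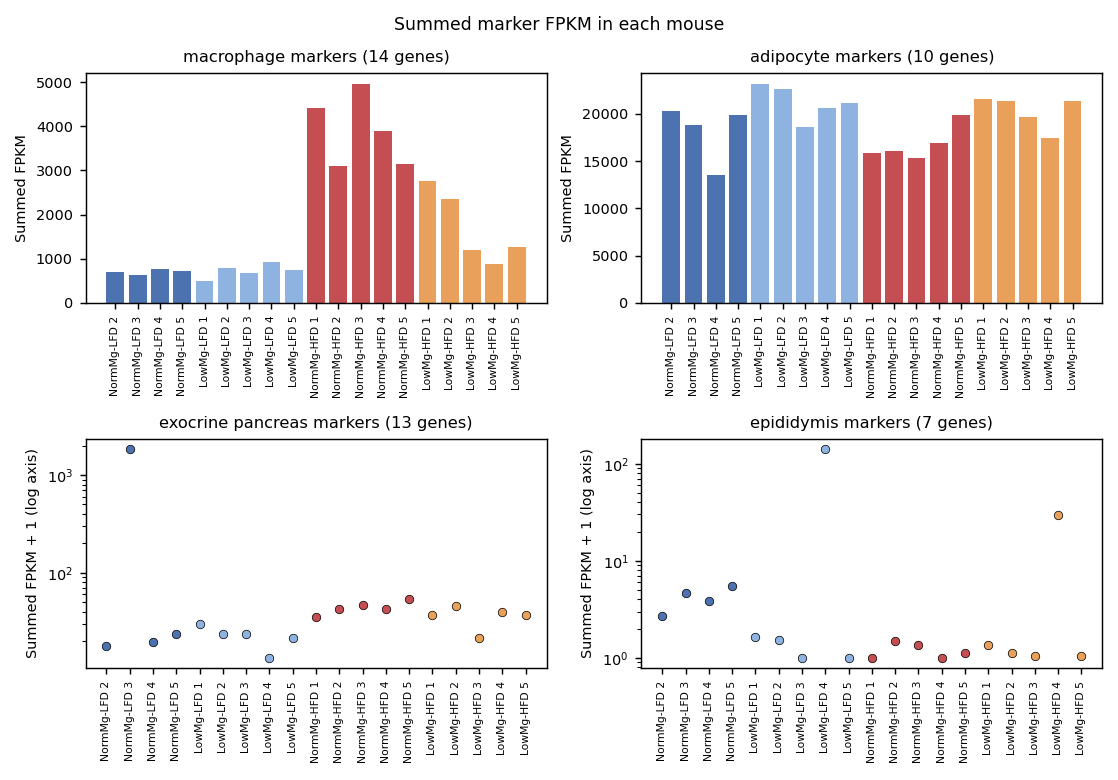
Summed FPKM of cell type markers in each mouse, as bars from 0 for 14 macrophage and 10 adipocyte genes and as points on a log axis, with 1 added, for 13 exocrine pancreas and 7 epididymis genes. Macrophage sums are 3111 to 4952 in NormMg-HFD mice and at most 917 in LFD mice, and NormMg-LFD 3 stands apart for pancreas markers.

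Some members share sequence with other genes, so that their reads could be assigned wrongly. Of the distinct 50-base stretches of a member's transcripts in GENCODE M21, the length of a read, 34.7% also occur in another gene for Gpx4, 33.7% for Gstp1, 21% for Sod2, 18.9% for Gstm1, 8.29% for Prdx1, 5.65% for Gstm2 and 4.53% for Prdx2. The share is 3.92% or less in every other member. Gstp1 has a second row on a patch sequence with identical values in every mouse, and the row on chromosome 19 was used, so its absolute level is uncertain.

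Between NormMg-HFD and NormMg-LFD mice 24 of the 35 tested members differed, 10 higher and 14 lower on the HFD, at an adjusted p under 0.05 (limma, adjusted over all 8336 genes tested). Of all genes tested, 24.6% were higher and 12.8% lower in that comparison. Between LowMg-HFD and NormMg-HFD mice 13 members differed, 9 higher and 4 lower with low Mg2+, where 5.58% of all genes were higher and 12.9% lower. The 9 that were higher are Gpx3, Sod1, Mgst3 and 6 soluble glutathione S-transferases, and the 4 that were lower are Hmox1, Txn1, Prdx1 and Sod2. The number higher was not stable: it was 5 without NormMg-HFD 1, NormMg-HFD 3 or LowMg-HFD 3, each left out alone. The share of all genes called in either direction was then 12.9%, 11.3% and 12.7%, beside 18.5% in the main fit. Without a filter on low values 4 were higher, beside 5.1% of all genes called, and 4 stayed lower in each of these. With quantile normalization 12 were higher and 4 lower (20% of all genes called), and without NormMg-HFD 5 there were 11 higher and 6 lower (19.6%). Between LowMg-LFD and NormMg-LFD mice 0 members passed the threshold, as did 0% of all genes, although 4 members and 547 genes had an unadjusted p under 0.05 in limma. The median log2 difference over the 35 members was -0.10 for the HFD at normal Mg2+ and 0.02 for low Mg2+ on the HFD, beside 0.07 and -0.04 over all genes. Both comparisons use the same NormMg-HFD mice, so that they are not independent. In the 16 mice, 21 members differed between NormMg-HFD and NormMg-LFD mice (8 higher, 13 lower), beside 34.4% of all genes. For low Mg2+ on the HFD 11 members differed in these mice (6 higher, 5 lower), beside 16.4% of all genes, and on the LFD 0 did, beside 0%.

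The values of the groups were apart for some members. In 9 higher and 9 lower members every NormMg-HFD mouse lay outside the range of the NormMg-LFD mice, where 32.1% of all genes showed no overlap in either direction. For low Mg2+ on the HFD there was no overlap in 2 higher members (Mgst3, Gsta3) and 4 lower ones (Hmox1, Prdx1, Sod2 and Nfe2l2, the last not past the threshold), where 12.8% of all genes showed none. No call reversed its direction under any alternative processing that was run. The HFD comparisons depend on scaling: with the mice centred on their medians the split at normal Mg2+ became 8 higher and 16 lower, beside 37.8% of all genes called in either direction, and with quantile normalization 7 higher and 17 lower, beside 38.3%, where the main share was 37.4%. Median centring moved the median difference of all genes from 0.07 to -0.03 on the log2 scale.

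**Figure D2:**
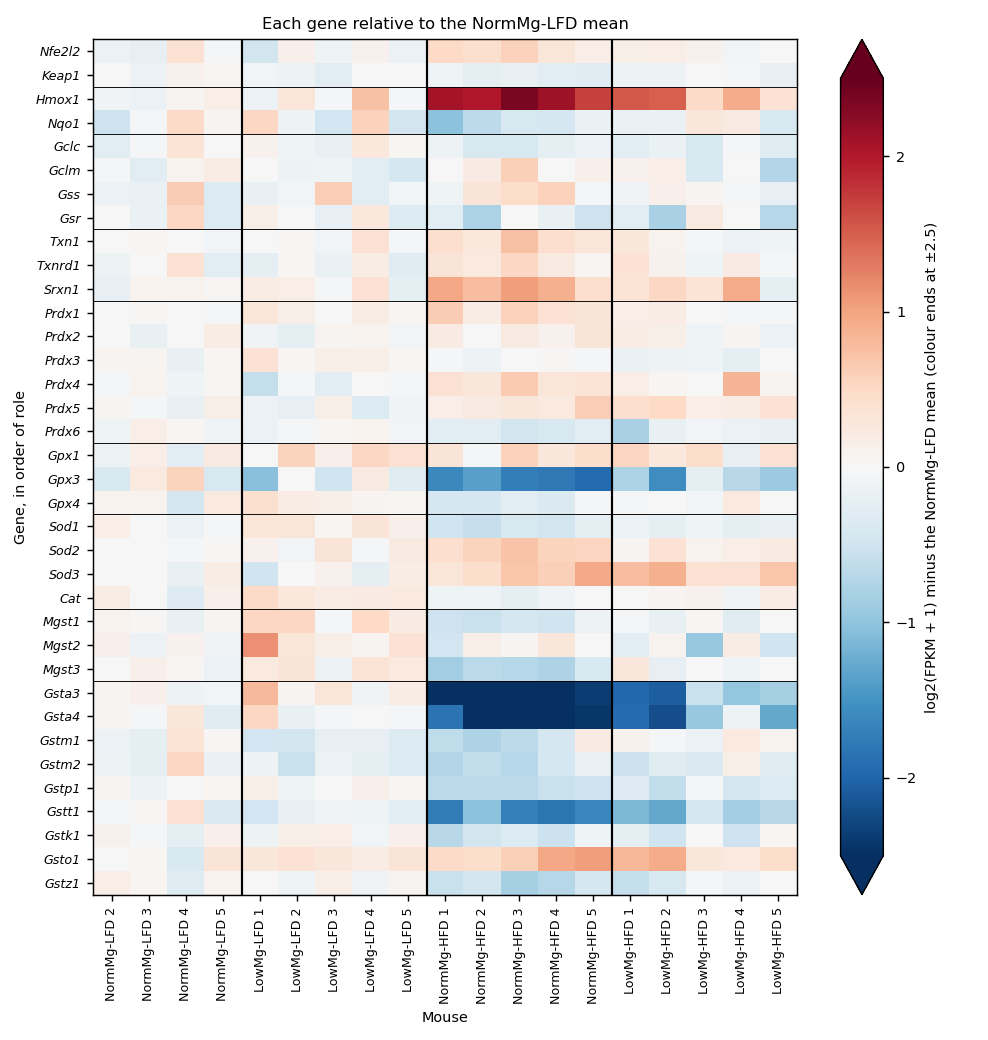
Level of the 36 genes (rows, in order of role) in each of the 19 mice (columns, by diet group), as log2(FPKM + 1) minus the mean of the NormMg-LFD mice, with colour ending at ±2.5. Gsta3 is lowest and Hmox1 highest in NormMg-HFD mice, and Gsta4 is low in NormMg-HFD mice and in LowMg-HFD mice 1 and 2, which overlap. LowMg-HFD mice 1 and 2 differ from mice 3 to 5 of their group in these genes.

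Both regulators passed the threshold on the HFD at normal Mg2+, in opposite directions. Nfe2l2, the gene of NRF2, was at 34.2 ± 6.98 FPKM in NormMg-LFD mice (SD, n = 4), 31.8 ± 5.11 in LowMg-LFD mice (n = 5), 44.7 ± 5.24 in NormMg-HFD mice (n = 5) and 35.7 ± 2.39 in LowMg-HFD mice (n = 5). The difference between NormMg-HFD and NormMg-LFD mice was 0.39 ± 0.13 on the log2 scale (SE, adjusted p = 0.0243), with overlapping groups. It lost the threshold in the 16 mice, with quantile normalization, with no filter on low values, and without NormMg-LFD 2, 3 or 5 or NormMg-HFD 1 or 3 (adjusted p 0.0532 to 0.0918). For low Mg2+ on the HFD Nfe2l2 differed by -0.31 ± 0.12 (adjusted p = 0.0823), with every LowMg-HFD mouse (32.3 to 37.8) just under the lowest NormMg-HFD mouse (37.9). Keap1, which targets NRF2 for degradation, was 15.8 to 18.3 FPKM in NormMg-HFD mice and 17.9 to 21.3 in NormMg-LFD mice, a log2 difference of -0.22 ± 0.08 (adjusted p = 0.0439). This call was lost with a filter of 1, with the replicate number as a block, and when only the groups compared were fitted. It was also lost without any 1 of 10 mice (NormMg-LFD 2, 4 or 5, LowMg-LFD 2, NormMg-HFD 2, 3, 4 or 5, LowMg-HFD 1 or 2), with an adjusted p of 0.0501 to 0.111.

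The core of the antioxidant response element, TGACNNNGC, was searched on both strands of RefSeq promoter windows (GRCm38.p6) that run from 250 bases before a gene's start to 50 after it. A window was found for 30 of the 36 members, and 8 of these 30 (26.7%) held a match, beside 3781 of 27025 genes with a window (14%). Genes can have several RefSeq starts (38 windows for the 30 members), and distances are from the start of the window shown. A match is a description of the letters and not a site. Gsta3, Mgst1, Prdx1 and Sod1 are shown because they differed on the HFD at normal Mg2+, and Gclm and Txnrd1 because they did not pass the threshold. Capitals mark the match, and each stretch is written along the strand of its gene.
Gsta3: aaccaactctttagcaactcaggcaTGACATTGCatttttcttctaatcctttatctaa
Mgst1: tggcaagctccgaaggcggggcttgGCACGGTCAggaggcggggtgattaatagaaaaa
Prdx1: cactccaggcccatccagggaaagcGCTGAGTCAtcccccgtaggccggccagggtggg
Sod1: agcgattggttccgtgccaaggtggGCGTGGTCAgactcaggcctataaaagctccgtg
Gclm: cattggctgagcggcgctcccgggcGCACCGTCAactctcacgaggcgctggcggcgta
Txnrd1: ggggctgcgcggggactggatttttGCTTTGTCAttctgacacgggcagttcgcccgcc
The stretches lie at chr1:21240439-21240497 (+) for Gsta3, chr6:138140446-138140504 (+) for Mgst1, chr4:116685441-116685499 (+) for Prdx1 and chr16:90220681-90220739 (+) for Sod1. Those of Gclm and Txnrd1 lie at chr3:122245398-122245456 (+) and chr10:82859089-82859147 (+). That of Txnrd1 belongs to an internal RefSeq start, inside the gene as GENCODE M21 gives it (from 82833951), and that of Mgst1 also lies past the GENCODE start (138140316). The match runs along the gene's strand in Gsta3, 121 bases before the start, and on the opposite strand in the other 5. Nfe2l2 itself holds a match 240 bases before its start, and the match of Srxn1 lies 29 bases after the start. The members with a match did not share a direction: on the HFD at normal Mg2+, Gsta3, Mgst1 and Sod1 were lower, Prdx1, Srxn1 and Nfe2l2 higher, and Gclm and Txnrd1 differed by 0.18 ± 0.17 and 0.27 ± 0.14 (adjusted p = 0.432 and 0.133).

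Hmox1, the inducible enzyme that breaks down haem (chromosome 8, 75093621 to 75100589, + strand, GRCm38, GENCODE M21), showed the largest rise of the members on the HFD. Its FPKM was 19.04, 18.2, 21.2 and 22.8 in NormMg-LFD mice 2 to 5, 18.1, 25.3, 19.4, 34.4 and 19.7 in LowMg-LFD mice 1 to 5, 88.4, 83.6, 107, 91.0 and 68.0 in NormMg-HFD mice 1 to 5, and 60.2, 58.6, 28.8, 39.6 and 26.3 in LowMg-HFD mice 1 to 5. Every NormMg-HFD mouse lay above every other mouse, and within the LowMg-HFD group mice 1 and 2 were nearest to them. The log2 difference was 2.05 ± 0.22 between NormMg-HFD and NormMg-LFD mice (adjusted p = 2.12e-06) and -1.09 ± 0.21 between LowMg-HFD and NormMg-HFD mice (adjusted p = 0.00284). Across 29 alternatives the second ranged from -1.23 to -0.94 and kept its call in each. Between LowMg-HFD and LowMg-LFD mice Hmox1 was still higher, by 0.80 ± 0.21 (adjusted p = 0.0147), a call that was lost without LowMg-HFD 2 (adjusted p = 0.052) and when only the groups compared were fitted (adjusted p = 0.0697). Within that group the macrophage marker sum was also highest in LowMg-HFD mice 1 and 2. Of 13 tested macrophage markers, 11 were higher and 1 lower on the HFD at normal Mg2+, where 24.6% and 12.8% of all genes were. With low Mg2+ on the HFD 11 were lower, where 12.9% of all genes were. The part of macrophages in the Hmox1 values was not tested.

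Nqo1, a quinone reductase and a common readout of NRF2, was low in eWAT. Its FPKM was 2.34, 3.61, 5.66 and 4.02 in NormMg-LFD mice, 5.80, 3.37, 2.43, 6.13 and 2.46 in LowMg-LFD mice, 1.33, 2.01, 2.63, 2.55 and 3.22 in NormMg-HFD mice, and 3.23, 3.27, 4.79, 4.55 and 2.67 in LowMg-HFD mice. All groups overlapped. With the filter lowered to an FPKM of 1, it differed by -0.54 ± 0.25 on the log2 scale for the HFD at normal Mg2+ (adjusted p = 0.119) and by 0.50 ± 0.24 for low Mg2+ on the HFD (adjusted p = 0.186).

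None of the 4 enzymes of glutathione synthesis and reduction passed the threshold in any comparison. Gclc and Gclm, the catalytic and modifier subunits of the rate-limiting glutamate-cysteine ligase, were at 7.02 to 12.4 and 18.4 to 47.6 FPKM over all mice. Gss, glutathione synthetase, was at 11.3 to 23.3 FPKM, and Gsr, which reduces oxidised glutathione, at 11.3 to 29.8 FPKM. For the HFD at normal Mg2+ the log2 differences were -0.26 ± 0.13 for Gclc (adjusted p = 0.14), 0.18 ± 0.17 for Gclm (0.432), 0.25 ± 0.20 for Gss (0.345) and -0.35 ± 0.22 for Gsr (0.212). Gclc passed the filter on low values only through the LowMg-LFD mice, so that a missed threshold says little about it. For low Mg2+ on the HFD the farthest from 0 was Gclm, at -0.34 ± 0.16 (adjusted p = 0.137).

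Of the 3 members of the thioredoxin system, 2 rose on the HFD at normal Mg2+, where 24.6% of all genes did, and 0 on the HFD at low Mg2+, where 12.4% did. Txn1, the cytosolic thioredoxin, was at 86.1, 88.1, 85.4 and 80.6 FPKM in NormMg-LFD mice, 84.1, 87.1, 81.0, 110.4 and 82.8 in LowMg-LFD mice, 115, 102, 141, 113 and 105 in NormMg-HFD mice, and 104, 89.9, 82.5, 77.2 and 78.7 in LowMg-HFD mice. The NormMg-HFD mice lay above all NormMg-LFD mice, and LowMg-HFD mouse 1 and LowMg-LFD mouse 4 reached into their range. Txn1 was higher by 0.42 ± 0.11 on the HFD at normal Mg2+ (adjusted p = 0.0047) and lower by 0.41 with low Mg2+ on the HFD (log2 difference -0.41 ± 0.10, adjusted p = 0.00967). Srxn1, the sulfiredoxin that repairs overoxidised peroxiredoxins, was at 11.3 to 13.98 FPKM in NormMg-LFD mice, 10.9 to 17.1 in LowMg-LFD mice, 17.9 to 28.0 in NormMg-HFD mice and 11.1 to 25.8 in LowMg-HFD mice. Its log2 difference on the HFD at normal Mg2+ was 0.81 ± 0.18 (adjusted p = 0.00142), and for low Mg2+ on the HFD it was -0.43 ± 0.17 (adjusted p = 0.0805). Txnrd1, thioredoxin reductase, differed by 0.27 ± 0.14 and -0.17 ± 0.13 in these comparisons (adjusted p = 0.133 and 0.39). On the HFD at low Mg2+ the differences were -0.04 ± 0.10 for Txn1, 0.30 ± 0.17 for Srxn1 and 0.20 ± 0.13 for Txnrd1 (adjusted p = 0.82, 0.248 and 0.315).

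Of the 6 peroxiredoxins, 3 rose and 1 fell on the HFD at normal Mg2+, where 24.6% and 12.8% of all genes did, and 1 fell with low Mg2+ on the HFD, where 12.9% did. Prdx1, a cytosolic peroxiredoxin and the most abundant of them, was at 422, 429, 425 and 411 FPKM in NormMg-LFD mice, 517, 464, 417, 482 and 438 in LowMg-LFD mice, 653, 478, 632, 544 and 529 in NormMg-HFD mice, and 474, 478, 425, 408 and 414 in LowMg-HFD mice. NormMg-HFD mouse 2 (477.88 FPKM) lay only just above the highest LowMg-HFD mouse (477.60). The log2 difference was 0.42 ± 0.09 on the HFD at normal Mg2+ (adjusted p = 0.00166) and -0.36 ± 0.09 for low Mg2+ on the HFD (adjusted p = 0.00859). Prdx5, which is found in mitochondria, peroxisomes and cytosol, was higher on the HFD at both Mg2+ levels, by 0.31 ± 0.11 at normal (adjusted p = 0.034) and 0.45 ± 0.10 at low Mg2+ (adjusted p = 0.00637). The first call was lost with median centring, with quantile normalization, with no filter, in the 16 mice, and without NormMg-LFD 3 or 4 or NormMg-HFD 3 or 5 (adjusted p 0.051 to 0.106), and the second with median centring (adjusted p = 0.0699).

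Prdx4, the peroxiredoxin of the endoplasmic reticulum, lay at the threshold on the HFD at normal Mg2+ (0.39 ± 0.15, adjusted p = 0.05 as rounded) and was lost in 23 of 29 alternatives, 17 of them without 1 mouse (adjusted p 0.0506 to 0.126). The mice whose removal kept it were LowMg-LFD 1 and LowMg-HFD 4. Prdx6, a single-cysteine peroxiredoxin, was lower by 0.34 at normal Mg2+ (log2 difference -0.34 ± 0.12, adjusted p = 0.0275). This was lost in the 16 mice, with no filter, with the replicate number as a block, and without NormMg-LFD 3 or 4 or NormMg-HFD 3 or 4 (adjusted p 0.056 to 0.0962). Prdx3, the mitochondrial peroxiredoxin, was lower on the HFD between the low Mg2+ groups (-0.28 ± 0.08, adjusted p = 0.0158) and differed by -0.03 ± 0.08 at normal Mg2+, and the interaction did not pass (adjusted p = 0.209). Without overlap, LowMg-HFD mice were at 59.2 to 70.3 FPKM and LowMg-LFD mice at 72.8 to 91.1. In the 16 mice and when only the groups compared were fitted that call was lost. Prdx2, abundant in red cells, was at 77.5 to 114 FPKM over all mice and passed in no comparison.

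Of the glutathione peroxidases, Gpx3, the enzyme secreted into plasma, carried the change. Its FPKM was 383, 588, 731 and 378 in NormMg-LFD mice, 242, 495, 351, 582 and 405 in LowMg-LFD mice, 163, 193, 150.3, 143 and 129.9 in NormMg-HFD mice, and 289, 169.8, 420, 308 and 265 in LowMg-HFD mice. No NormMg-HFD mouse reached the LFD range, and LowMg-HFD mouse 2 lay within the NormMg-HFD range. Gpx3 fell by 1.69 on the log2 scale on the HFD at normal Mg2+ (-1.69 ± 0.26, adjusted p = 4.27e-05) and was higher by 0.85 ± 0.24 with low Mg2+ on the HFD (adjusted p = 0.0201). The second call was lost without LowMg-HFD 3 (0.70, adjusted p = 0.0654) and when all genes were tested without a filter. Gpx1, the cytosolic enzyme, and Gpx4, which reduces lipid hydroperoxides in membranes, were at 567 to 1009 and 378 to 682 FPKM over all mice. Neither passed the threshold in any comparison, and Gpx4 came nearest, with -0.30 ± 0.12 on the HFD at normal Mg2+ (adjusted p = 0.0617) and 0.32 ± 0.12 for low Mg2+ on the HFD (adjusted p = 0.0609).

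The 3 superoxide dismutases moved in different ways. Sod2, the mitochondrial manganese enzyme, was at 36.5, 36.2, 35.6 and 37.1 FPKM in NormMg-LFD mice, 39.3, 34.5, 45.5, 35.7 and 42.8 in LowMg-LFD mice, 48.8, 53.6, 59.8, 53.9 and 52.8 in NormMg-HFD mice, and 38.1, 47.1, 38.5, 41.2 and 42.7 in LowMg-HFD mice. All NormMg-HFD mice lay above all others. Sod2 was higher by 0.55 ± 0.09 on the HFD at normal Mg2+ (adjusted p = 8.42e-05) and differed by -0.37 ± 0.08 for low Mg2+ on the HFD (adjusted p = 0.0059), and both calls held under every alternative run. Sod3, the extracellular enzyme, was at 105 to 136 FPKM in NormMg-LFD mice, 83.8 to 135 in LowMg-LFD mice, 148 to 232 in NormMg-HFD mice and 155 to 220.1 in LowMg-HFD mice. It rose on the HFD at normal Mg2+ (0.60 ± 0.15, adjusted p = 0.00384) and at low Mg2+ (0.71 ± 0.14, adjusted p = 0.00268), and the difference between the HFD groups was 0.02 ± 0.14.

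Sod1, the cytosolic copper-zinc enzyme, was at 376 to 465 FPKM in NormMg-LFD mice, 427 to 517 in LowMg-LFD mice, 279 to 356 in NormMg-HFD mice and 347 to 386 in LowMg-HFD mice. It fell on the HFD at normal Mg2+ (-0.43 ± 0.09, adjusted p = 0.000734) and at low Mg2+ (-0.40 ± 0.08, adjusted p = 0.00303). Its rise with low Mg2+ on the HFD (0.24 ± 0.08, adjusted p = 0.0484) was lost in the 16 mice and in the 18 samples left without LowMg-HFD 4 under another filter. It was also lost with a filter of 1 or none, without the intensity trend, with the replicate number as a block, and when only the groups compared were fitted. The same held without any 1 of 13 mice (NormMg-LFD 3 or 5, LowMg-LFD 2 or 5, NormMg-HFD 1, 2, 3 or 4, or any LowMg-HFD mouse), with an adjusted p of 0.0504 to 0.113. Cat, the peroxisomal catalase, was at 260 to 457 FPKM over all mice and passed in no comparison. On the LFD it differed by 0.28 ± 0.10 with low Mg2+ (adjusted p = 0.74).

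The microsomal glutathione S-transferases are membrane enzymes, and Mgst1 was the most abundant of all members in NormMg-LFD mice, at 809 ± 69.5 FPKM (SD, n = 4). Mgst1 fell on the HFD at normal Mg2+ (-0.42 ± 0.12, adjusted p = 0.0102) and at low Mg2+ (-0.44 ± 0.12, adjusted p = 0.0137, lost in the 16 mice, with no filter and when only the groups compared were fitted). For low Mg2+ it differed by 0.32 ± 0.12 on the HFD (adjusted p = 0.0575) and 0.34 ± 0.12 on the LFD (adjusted p = 0.744). Mgst3 was at 112, 122, 116 and 102 FPKM in NormMg-LFD mice, 133, 142, 103, 144 and 133 in LowMg-LFD mice, 61.2, 70.5, 68.2, 65.2 and 86.4 in NormMg-HFD mice, and 136, 97.9, 114, 104 and 113 in LowMg-HFD mice. The NormMg-HFD mice lay under every mouse of the other groups. Mgst3 differed by -0.68 ± 0.12 on the HFD at normal Mg2+ (adjusted p = 0.000127) and by 0.68 ± 0.11 for low Mg2+ on the HFD (adjusted p = 0.00178), and neither call was lost under any alternative run. Mgst2, at 13.2 to 59.8 FPKM over all mice, was lower on the HFD between the low Mg2+ groups (-0.70 ± 0.21, adjusted p = 0.0294), while the interaction did not pass (adjusted p = 0.207). The call was lost with no filter, when only the groups compared were fitted, and without LowMg-LFD 1 or LowMg-HFD 1, 3 or 5 (adjusted p 0.0576 to 0.093).

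The soluble glutathione S-transferases held the largest differences. All 9 passed on the HFD at normal Mg2+, 8 lower, where 12.8% of all genes were, and Gsto1 higher, with a median log2 difference of -0.59 beside 0.07 over all genes. With low Mg2+ on the HFD 6 were higher, where 5.58% of all genes were, with a median of 0.36 beside -0.04 over all genes. Gsta3, an alpha class enzyme (chromosome 1, 21240589 to 21265661, + strand), was at 166, 172, 144 and 149.6 FPKM in NormMg-LFD mice, 277, 165, 194, 148 and 179.6 in LowMg-LFD mice, 27.3, 26.4, 16.6, 18.7 and 29.7 in NormMg-HFD mice, and 39.6, 36.7, 107, 80.3 and 87.6 in LowMg-HFD mice. The groups fell in order without overlap, NormMg-HFD under LowMg-HFD under both LFD groups, and LowMg-HFD mice 1 and 2 lay nearest to the NormMg-HFD mice. The log2 difference was -2.71 ± 0.27 on the HFD at normal Mg2+ (adjusted p = 1.36e-06), -1.53 ± 0.25 on the HFD at low Mg2+ (adjusted p = 0.00093) and 1.43 ± 0.25 for low Mg2+ on the HFD (adjusted p = 0.00223). Leaving out LowMg-HFD 1 or 2 raised the last to 1.61 or 1.63.

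Gsta4, the alpha class enzyme known for conjugating the lipid aldehyde 4-hydroxynonenal (chromosome 9, 78182774 to 78209349, + strand), was at 28.9, 26.4, 33.7 and 22.1 FPKM in NormMg-LFD mice, 39.9, 24.1, 26.4, 27.6 and 26.4 in LowMg-LFD mice, 6.97, 3.42, 1.59, 2.5 and 4.29 in NormMg-HFD mice, and 6.46, 5.09, 13.8, 25.1 and 10.8 in LowMg-HFD mice. LowMg-HFD mice 1 and 2 overlapped the NormMg-HFD mice, whereas mouse 4 reached the LFD range. Gsta4 passed the filter on low values only through the LFD groups, where it is high, and could not be tested when only the HFD groups were fitted. Its log2 differences are therefore given as a description, although it is counted among the calls: -2.69 ± 0.34 on the HFD at normal Mg2+, -1.35 ± 0.32 on the HFD at low Mg2+ and 1.39 ± 0.32 for low Mg2+ on the HFD. Without LowMg-HFD 4, the mouse with Cst8, the last was 1.09. Gstt1, a theta class enzyme, was at 68.5, 72.1, 92.3 and 54.9 FPKM in NormMg-LFD mice, 50.4, 61.6, 66.7, 65.9 and 58.2 in LowMg-LFD mice, 20.3, 34.0, 21.1, 19.1 and 22.02 in NormMg-HFD mice, and 31.8, 28.6, 52.0, 39.0 and 43.2 in LowMg-HFD mice. The HFD groups overlapped only through NormMg-HFD mouse 2 at 34.0. Gstt1, which was above the filter in all groups, differed by -1.59 ± 0.18, -0.65 ± 0.17 and 0.72 ± 0.17 in the same 3 comparisons (adjusted p = 2.36e-06, 0.0138 and 0.0069).

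**Figure D3:**
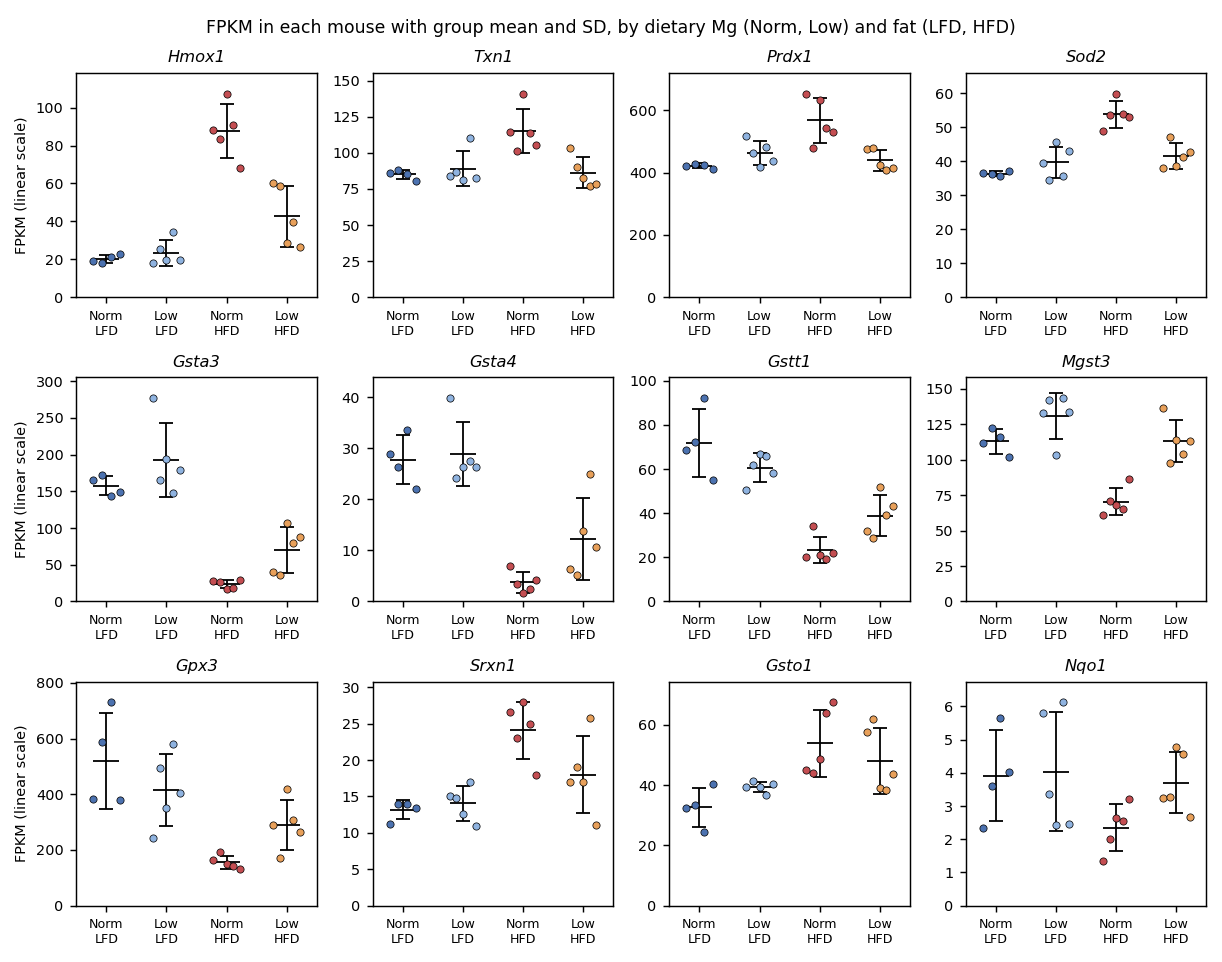
FPKM of 12 of the genes in each mouse (points, linear axis from 0) with the mean and SD of each group (bars), by dietary Mg2+ and fat. Gsta3 is 16.6 to 29.7 in NormMg-HFD mice and 36.7 to 107 in LowMg-HFD mice, and Hmox1 is highest in the 5 NormMg-HFD mice.

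The other glutathione S-transferases moved less. Gstm1 and Gstm2, neighbouring mu class genes on chromosome 3, fell on the HFD at normal Mg2+ by 0.46 and 0.53 on the log2 scale (-0.46 ± 0.16 and -0.53 ± 0.16, adjusted p = 0.0293 and 0.0121). The Gstm1 call was lost with no filter, when only the groups compared were fitted, and without NormMg-LFD 4 or 5 or NormMg-HFD 1, 2 or 3 (adjusted p 0.0626 to 0.11), and that of Gstm2 without NormMg-LFD 4 (adjusted p = 0.057). For low Mg2+ on the HFD Gstm1 was higher by 0.51 ± 0.15 (adjusted p = 0.0228), with 359 to 472 FPKM in LowMg-HFD mice and 231 to 456 in NormMg-HFD mice, of which mouse 5 alone was over 297. That call was lost in the 16 mice, in the 18 samples, with no filter, and without NormMg-HFD 1, 2 or 3 or LowMg-HFD 4 (adjusted p 0.0524 to 0.0676). On the LFD the difference of Gstm1 was -0.34 ± 0.16 (adjusted p = 0.753). Between the low Mg2+ groups it differed by 0.40 ± 0.15 (adjusted p = 0.0785), with every LowMg-HFD mouse above every LowMg-LFD mouse (286 to 344 FPKM).

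Gstp1, the pi class enzyme, was at 74.2 to 85.4 FPKM in NormMg-LFD mice, 50.6 to 56.2 in NormMg-HFD mice and 52.8 to 79.9 in LowMg-HFD mice. Gstz1, the zeta class enzyme of tyrosine breakdown, was at 295 to 406, 203 to 269.6 and 238 to 359 FPKM in these groups. Both fell on the HFD at normal Mg2+ (-0.62 ± 0.09 and -0.59 ± 0.13, adjusted p = 4.69e-05 and 0.00105). Their rises with low Mg2+ on the HFD, 0.27 ± 0.09 and 0.36 ± 0.12 (adjusted p = 0.0415 and 0.042), were lost in the 16 mice, with a filter of 1 or none, and when only the groups compared were fitted. That of Gstp1 was also lost without the intensity trend, with the replicate number as a block, and without LowMg-LFD 5, NormMg-HFD 1, 2, 3 or 4 or LowMg-HFD 1, 3 or 5 (adjusted p 0.0506 to 0.122). That of Gstz1 was lost in the 18 samples and without NormMg-LFD 3, NormMg-HFD 1, 3 or 4 or LowMg-HFD 3, 4 or 5 (adjusted p 0.0511 to 0.124). Gstk1, of mitochondria and peroxisomes, was lower on the HFD at normal Mg2+ (-0.43 ± 0.13, adjusted p = 0.0175), a call lost without NormMg-LFD 2 or 5 or NormMg-HFD 1 (adjusted p 0.0511 to 0.0562). Gsto1, an omega class enzyme that reduces dehydroascorbate, was at 24.3 to 40.3 FPKM in NormMg-LFD mice, 44.2 to 67.6 in NormMg-HFD mice and 38.3 to 62.0 in LowMg-HFD mice, and rose by 0.71 ± 0.16 at normal Mg2+ (adjusted p = 0.00203).

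Adipocyte markers moved beside the glutathione S-transferases. Of the 10, 6 were lower and 1 higher on the HFD at normal Mg2+, where 12.8% and 24.6% of all genes were. With low Mg2+ on the HFD 5 were higher and 0 lower, where 5.58% and 12.9% of all genes were. The summed FPKM of the 10 markers was 13552 to 20266 in NormMg-LFD mice, 18612 to 23130 in LowMg-LFD mice, 15278 to 19892 in NormMg-HFD mice and 17490 to 21512 in LowMg-HFD mice. Fabp4 made up the largest share of this sum. Single markers were apart between NormMg-HFD and NormMg-LFD mice, such as the lipid droplet coat protein Plin1 (540.1 to 710.4 against 859 to 1189 FPKM) and the glucose transporter Slc2a4 (19.2 to 43.4 against 77.9 to 105 FPKM). The hormone leptin (Lep) went the other way (960.3 to 1285 against 293 to 427 FPKM), and Fabp4, Lpl and Cidec overlapped. These markers were chosen after their values were seen. The part of cell composition in the glutathione S-transferase values was not tested.

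With low Mg2+ in both groups, 11 members differed between the fat levels. Between LowMg-HFD and LowMg-LFD mice 3 members were higher (Hmox1, Prdx5, Sod3), where 12.4% of all genes were, and 8 were lower (Gsta3, Gsta4, Mgst2, Gstt1, Mgst1, Sod1, Gstp1, Prdx3), where 3.51% were. With median centring the split became 2 higher and 10 lower, beside 13.5% of all genes called in either direction, and in the 16 mice 3 higher and 6 lower, beside 16.5%, where the main share was 15.9%. The difference between the fat effects was tested as an interaction, in which 0 members passed the threshold in limma, beside 1.25% of all genes, although 13 members, and 1698 of the 8336 genes, had an unadjusted p under 0.05. Nearest to it were Hmox1 (-1.25 ± 0.31, adjusted p = 0.051) and Gstm1 (0.85 ± 0.22), Gstt1 (0.94 ± 0.25), Prdx1 (-0.49 ± 0.13) and Sod2 (-0.48 ± 0.12), each with an adjusted p of 0.0551. Single mice decided this count. It was 8 without LowMg-HFD 2 (5.83% of all genes), 7 without LowMg-HFD 1 (5.34%), 5 without NormMg-HFD 5 (3.98%), 2 without NormMg-HFD 2 (1.24%) and 1 without LowMg-LFD 1 (2.5%), and 0 without any other mouse and in the 16 mice (0%). It was 3 with median centring (Hmox1, Gstm1, Gstt1), where 2.94% of all genes passed, and 4 with quantile normalization, where 4.16% did.

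**Figure D4:**
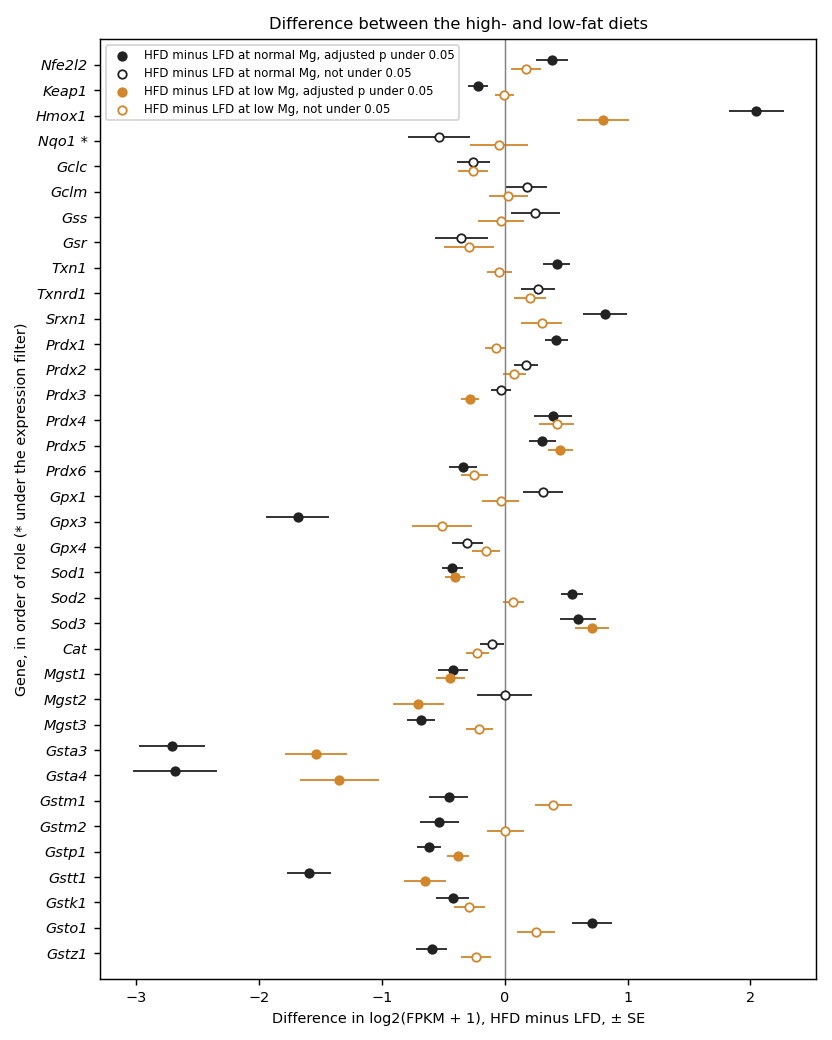
Difference in log2(FPKM + 1) between HFD and LFD mice (x axis, ± SE) for each gene (y axis, by role), at normal Mg2+ (black) and low Mg2+ (orange), with filled points past the threshold in limma. Gsta3 and Gsta4 lie farthest left, followed by Gpx3 and Gstt1, and Hmox1 lies farthest right at normal Mg2+.

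**Figure D5:**
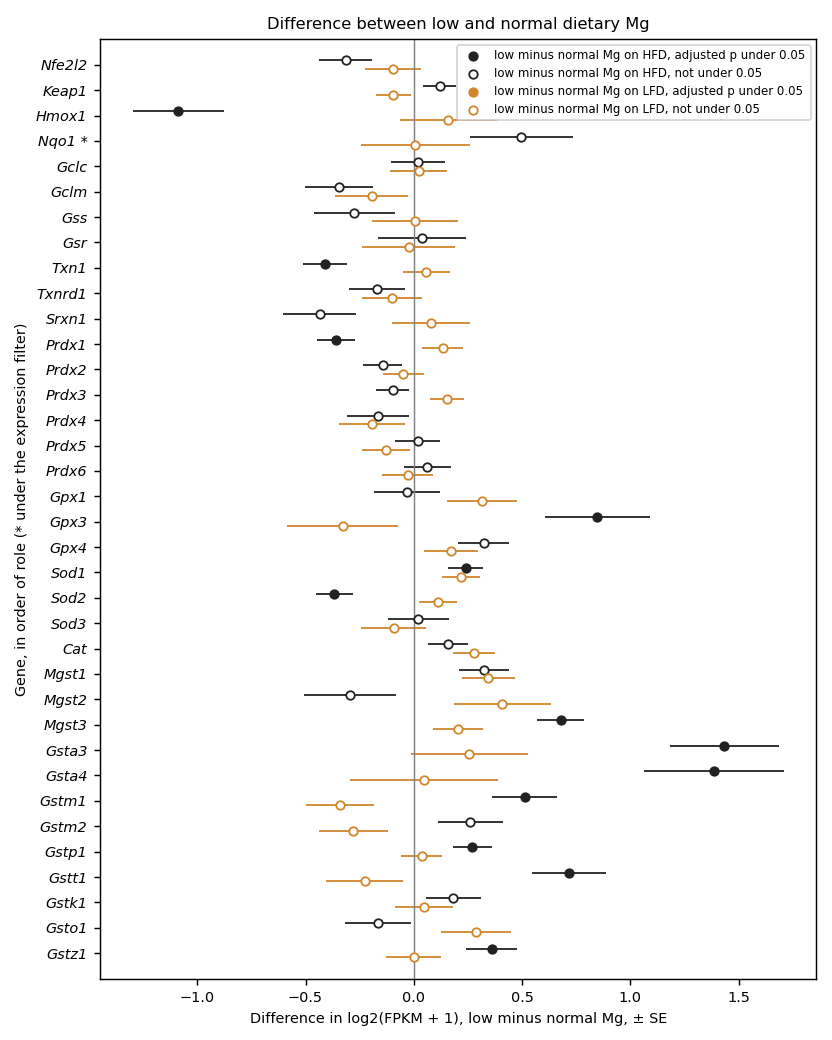
Difference in log2(FPKM + 1) between low and normal Mg2+ (x axis, ± SE) for each gene (y axis, by role), on the HFD (black) and LFD (orange), with filled points past the threshold in limma. There are 13 filled points on the HFD and 0 on the LFD.

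Other genes of these pathways were read from 4 lists. Of 23 tested NRF2 partners and other NRF2-responsive genes, 11 rose and 1 fell on the HFD at normal Mg2+ and 0 rose and 4 fell with low Mg2+ on the HFD (median log2 difference 0.37 and -0.24, beside 0.07 and -0.04 over all genes). Of all genes tested, 24.6% were higher and 12.8% lower in the first comparison, and 5.58% higher and 12.9% lower in the second, and the counts of the 4 lists are to be read against these shares. The 4 that fell were Akr1b8 (-1.06 ± 0.19, adjusted p = 0.00224) and Akr1b3 (-0.33 ± 0.10, adjusted p = 0.0342), both aldo-keto reductases, Ftl1, the ferritin light chain (-0.81 ± 0.16, adjusted p = 0.00303), and Ugdh, UDP-glucose dehydrogenase (-0.64 ± 0.14, adjusted p = 0.00547). Ftl1 was at 1555 to 1669 FPKM in NormMg-LFD mice, 3011 to 4619 in NormMg-HFD mice and 1607 to 2932 in LowMg-HFD mice, and was the 1 gene of the 4 lists past the threshold in the interaction (-1.03 ± 0.23, adjusted p = 0.0447). On the HFD at normal Mg2+ the largest rises of the list were Mt2, a metallothionein (1.25 ± 0.44, adjusted p = 0.0302), Ftl1 (1.21 ± 0.17, adjusted p = 1.72e-05), Blvra, which reduces the biliverdin that haem oxygenase makes (1.18 ± 0.13, adjusted p = 2.12e-06), and Akr1b8 (1.17 ± 0.20, adjusted p = 0.000134).

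Of 9 tested glutathione S-transferases and related proteins outside the member set, 3 rose and 6 fell on the HFD at normal Mg2+, and 1 rose and 2 fell with low Mg2+ on the HFD. The 2 that fell were Hpgds, the prostaglandin D synthase of immune cells (-1.58 ± 0.33), and Alox5ap, which takes part in leukotriene synthesis (-0.92 ± 0.21, adjusted p = 0.00579), and the 1 that rose was Gstm4 (0.48 ± 0.15, adjusted p = 0.0285). Gstm7 and Gstm5, mu class relatives of Gstm1, differed by -2.19 ± 0.78 and -1.99 ± 0.71 on the HFD at normal Mg2+ (adjusted p for Gstm5 = 0.0337). Both were spread widely within groups, Gstm5 at 36.3 to 228 FPKM in NormMg-LFD mice and 18.8 to 392 in LowMg-HFD mice, and Gstm7 at 8.57 to 89.5 and 4.11 to 73.0. Gstm7 was at 2.62 to 6.57 FPKM in NormMg-HFD mice and, of these groups, passed the filter only through the one where it is high, as Hpgds did through the NormMg-HFD mice, so that their differences are a description. The same holds for Gstt3, counted among the 6 that fell (8.37 to 28.9 FPKM in NormMg-LFD and 4.3 to 6.7 in NormMg-HFD mice).

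Of 24 tested genes of glutathione turnover, thioredoxin and glutaredoxin, 5 rose and 4 fell on the HFD at normal Mg2+, where 24.6% and 12.8% of all genes did, and 3 rose and 2 fell with low Mg2+ on the HFD, where 5.58% and 12.9% did. The shares at normal Mg2+ were near those of all genes. Glrx, the cytosolic glutaredoxin, was at 4.79 to 13.3 FPKM in NormMg-LFD mice, 14.9 to 22.9 in NormMg-HFD mice and 7.87 to 12.8 in LowMg-HFD mice, and differed by 1.16 ± 0.22 and -0.84 ± 0.21 in these comparisons (adjusted p for the second = 0.00924). In the first, it passed the filter only through the NormMg-HFD mice, and Txnrd3, counted among the 4 that fell, only through the NormMg-LFD mice (8.38 to 11.1 against 3.79 to 5.62 FPKM). Selenop, the selenium carrier protein, showed 0.63 ± 0.11 and -0.41 ± 0.10 (adjusted p = 0.000165 and 0.0103). The 3 that rose with low Mg2+ were Oplah, Msrb3 and Selenow (0.48 ± 0.15, 0.37 ± 0.09 and 0.29 ± 0.10, adjusted p = 0.0328, 0.00717 and 0.041). Of 13 tested genes of NADPH supply, 1 rose and 2 fell on the HFD at normal Mg2+ and 1 rose and 1 fell with low Mg2+ on the HFD. Idh1 and Idh2, the cytosolic and mitochondrial NADP-dependent isocitrate dehydrogenases, moved in opposite ways: Idh1 was higher on the HFD (0.31 ± 0.10, adjusted p = 0.0217) and lower with low Mg2+ (-0.30 ± 0.10, adjusted p = 0.0352), and Idh2 was lower on the HFD (-0.41 ± 0.09, adjusted p = 0.00174) and higher with low Mg2+ (0.36 ± 0.09, adjusted p = 0.00748). No gene of the 4 lists passed the threshold for low Mg2+ on the LFD.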

How the data were processed

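Total RNA of eWAT was sequenced by the authors with 50 base single-end reads, 1 library per mouse, mapped to the mouse transcriptome (GRCm38/mm10) and quantified with RSEM 1.2.31, with HISAT and Bowtie2 also named in the submitters' processing notes. They deposited FPKM for 24238 genes, with the count of total reads and the percent mapped per mouse in a second table. A single gene (1) with a non-numeric entry was dropped, and 26 symbols that had become dates were restored. FPKM are not counts, so no count test was run, the depth behind each value is unknown, and reads of near-identical genes were divided by RSEM. Differences are on the log2(FPKM + 1) scale, which understates changes of low genes. The tested genes (8336, over 19 mice) had an FPKM above 8 as the mean of some group and in 4 or more of its mice. They were fitted by limma 3.58.1, under R 4.3.3, with a trend of the variance on intensity and all 4 groups together, two-sided, with Benjamini-Hochberg adjustment over all genes tested and a threshold of 0.05. The fit was also run on simulated data, in which genes varied independently and with the same spread in every group. That run does not cover variation shared between genes or single mice that stand apart. Values were read for all 36 members, and for other genes of the 4 lists at most 6 per list and comparison with the largest called difference. The members, lists and markers were chosen with earlier results of these data known. Alternatives were a pseudocount of 0.1, a filter of 1 or none, median centring, quantile normalization, no trend, a replicate block, only the groups compared, 18 samples (without LowMg-HFD 4) with a filter of 3 on the log2 scale, and each mouse left out in turn. Leaving out 3 mice with pancreas or epididymis markers was chosen after seeing the data. Plots were made in Python 3.11.15 using matplotlib 3.10.9.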

Additional observations from a re-analysis of the deposited data

Results flagged for a closer look

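Single mice stood apart from the rest of their group for a member in 16 of 144 combinations of gene and group (11.1%), by the gap between an extreme value and its neighbour in relation to the range of the group. Chance alone would set about 1 in 20 groups apart if FPKM were normally distributed within groups, which was not checked, and the combinations share mice. In NormMg-LFD mice, mouse 4 had 62.07 FPKM of Prdx3 (72.56 to 73.68 in the others), 705.72 of Mgst1 (826.73 to 853.32) and 223.89 of Gstm2 (134.69 to 143.29), and mouse 2 had 11.26 of Srxn1 (13.48 to 13.98). In LowMg-LFD mice, mouse 1 had 457.47 FPKM of Cat (370.55 to 391.33), 59.75 of Mgst2 (27.70 to 34.02) and 39.90 of Gsta4 (24.12 to 27.61). Mouse 3 of that group had 22.75 of Gss (11.82 to 13.96) and 103.00 of Mgst3 (132.77 to 143.53), and mouse 4, which held epididymis markers, had 110.36 of Txn1 (81.04 to 87.08). In NormMg-HFD mice, mouse 2 had 34.02 FPKM of Gstt1 (19.09 to 22.02), mouse 3 had 42.87 of Prdx4 (32.83 to 35.24) and mouse 5 had 406.93 of Prdx5 (297.81 to 325.00). In LowMg-HFD mice, mouse 1 had 165.70 FPKM of Prdx6 (253.49 to 276.30), and mouse 4 had 48.93 of Prdx4 (27.07 to 30.09) and 608.45 of Gpx4 (488.66 to 508.36). This mouse 4 held Cst8, while every other epididymis marker was at most 1.15 FPKM in it.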

How the results depend on the processing

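Without a filter on low FPKM, 8 members passed for low Mg2+ on the HFD in place of 13, while the share of all genes passing went from 18.5% to 5.1%, and the interaction count of 0 became 3 with median centring and 4 with quantile normalization. When single mice were left out, there were 9 to 17 members for low Mg2+ on the HFD (11.3% to 19.8% of all genes), 18 to 24 for the HFD at normal Mg2+ (31.4% to 39.5%), 10 to 12 for the HFD at low Mg2+ (9.67% to 17.7%), 0 to 0 for low Mg2+ on the LFD (0%) and 0 to 8 for the interaction (0% to 5.83%). Under every alternative that could be fitted, 8 of 13 calls for low Mg2+ on the HFD, 16 of 24 for the HFD at normal Mg2+ and 6 of 11 for the HFD at low Mg2+ were kept, and 0 reversed. Same-numbered mice did not deviate together (27 pairs, r from -0.183 to 0.339, 5 of them over 0.1, and 6 of 19 mice highest with their own number), so numbers were not read as pairs. With the replicate block, 12, 0, 22, 11 and 0 members passed for low Mg2+ on the HFD, low Mg2+ on the LFD, the HFD at normal Mg2+, the HFD at low Mg2+ and the interaction, beside 17.6%, 0%, 36.3%, 15.2% and 0% of all genes. Groups of 4 or 5 mice and FPKM without counts limit what can be seen.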
